A study of Mus musculus with 6 samples.

Results

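The comparison described here asks how the RNA of mouse fibroblasts that lack PER1, PER2 and both NR1D receptors differs with and without CRY. It sets 2 Per/Nr1d_KO libraries against 2 libraries that were deposited under the name CPN_KO, which stands for Cry/Per/Nr1d_KO, and uses all genes. These are 4 of the 6 libraries of the series, and they were chosen by the deposited names of their counts. The genotype and title given for the CPN_KO-named pair say Cry/Per_KO, which goes against that name. This pair is called the CPN-named libraries throughout.

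The Per/Nr1d_KO cells are per1-/-, per2-/-, nr1d1-/- and nr1d2-/-, and still carry Cry1 and Cry2. Read by its deposited name, the CPN-named pair lacks all of these genes and also cry1 and cry2. Read by its genotype label, it is cry1-/-, cry2-/-, per1-/- and per2-/- with Nr1d1 and Nr1d2 intact. The remaining 2 libraries, called the third pair, have the opposite conflict: they are labelled Cry/Per/Nr1d_KO and were deposited under the name CP_KO. Read by its deposited name, the third pair lacks Cry1 and Cry2 but has Nr1d1 and Nr1d2 intact. It then differs from Per/Nr1d_KO in both CRY and NR1D, and is not a reference for CRY alone. Under the genotype labels the third pair would be the reference without CRY, so its values are given beside called genes that this reading changes. All cells were immortalized mouse embryonic fibroblast (MEF) lines of strain C57BL/6 in serum-containing medium, with no treatment given. The Cry/Per/Nr1d_KO line is 1 clone, made by mutating Nr1d1 and Nr1d2 in the Cry/Per_KO line with CRISPR/Cas9, and the Per/Nr1d_KO line was made separately. The presence of CRY and the origin of the line therefore cannot be told apart in this comparison. The 2 libraries of a pair are independent RNA preparations of 1 line, so the p-values below measure the spread between preparations only.

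Poly-A RNA was sequenced as single-end reads of 50 bases and counted per gene. The CPN-named libraries held 56427876 and 64845775 counts and the Per/Nr1d_KO libraries 53764390 and 85927236. Values are normalized counts, which are counts scaled by edgeR's TMM method to a common library size. A count of 0 in a library allows up to 3 counts, which is between 2.37 and 3.80 normalized counts in these 4 libraries and covers counting error only. Across genes, log2 CPM values of the libraries within a pair correlated at 0.998. The fibroblast markers Col1a1, Col1a2, Fn1, Vim, Pdgfra and Pdgfrb were abundant in all 4 libraries, while Thy1 and Lum were at or near 0. Dcn, a further fibroblast marker, was also too low to be tested. Most fibroblast markers tested nevertheless differed between the lines. Among 8 such genes, Per/Nr1d_KO cells showed 3 increases and 3 decreases that were called, and 2 were not called. The largest increase was 7.21 on the log2 scale, for Col3a1, which was much lower than Col1a1 in the CPN-named libraries. Of the markers of other cell types, those at or below 6.87 normalized counts included Krt5 and Krt14 (epithelial), Cdh5 (endothelial), Ptprc and Adgre1 (haematopoietic), Myod1 and Myog (myogenic), Sox10 (neural) and Adipoq (adipocyte). Other markers were present and differed. Pparg (1.11 and 0 against 887 and 851 in Per/Nr1d_KO) and Fabp4 (140 and 109 against 1468 and 1579) of the adipocyte list were higher, and Cdh1 of the epithelial list was at 11.1 and 8.84 against 100 and 110. Of the neural list Map2 was lower (5138 and 4992 against 355 and 333) and Tubb3 higher (359 and 356 against 676 and 664, but lower by 1.48 against the third pair). The summed endothelial markers were at 49.0 and 57.9 against 113 and 138, with the higher sums carried by Kdr and Tek, and the myogenic ones at 30.1 and 25.5 against 110 and 93.1, mostly from Des. Their part in the results below was not tested.

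The mammalian clock is a transcription-translation feedback loop. CLOCK and BMAL1, the product of Arntl, bind E-boxes and activate Per, Cry, Nr1d, Dbp and other genes. PER and CRY proteins return to the nucleus and repress CLOCK-BMAL1, and NR1D proteins repress Arntl and other genes that carry ROR elements. The Per/Nr1d_KO cells keep CRY1 and CRY2, and by the genotype all lines keep Per3, so a member of the PER family also remains.

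The test covered 11934 genes whose mean over the 6 libraries reached 100 normalized counts, and 3457 of them (29.0%) were called. A call needed an adjusted p (Benjamini-Hochberg, quasi-likelihood test of edgeR) under 0.05 and a change of more than 1.75-fold. In Per/Nr1d_KO cells 1813 genes (15.2%) were higher and 1644 (13.8%) were lower than in the CPN-named libraries. The median log2 fold change over all genes tested was 0.03, and the median of its absolute value was 0.46. Changes of more than 4-fold were found for 630 higher and 454 lower genes, and of more than 16-fold for 302 higher and 192 lower genes. Without the limit on the fold, 9793 genes (82.1%) passed the adjusted p, so the fold limit rather than the spread between preparations set most of the calls. Among 11006 genes whose mean reached 100 normalized counts in each compared pair, 12.5% were called higher and 11.3% lower. The counts of gene lists below stand against these shares, and a count near them is no result about its list.

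**Figure D1:**
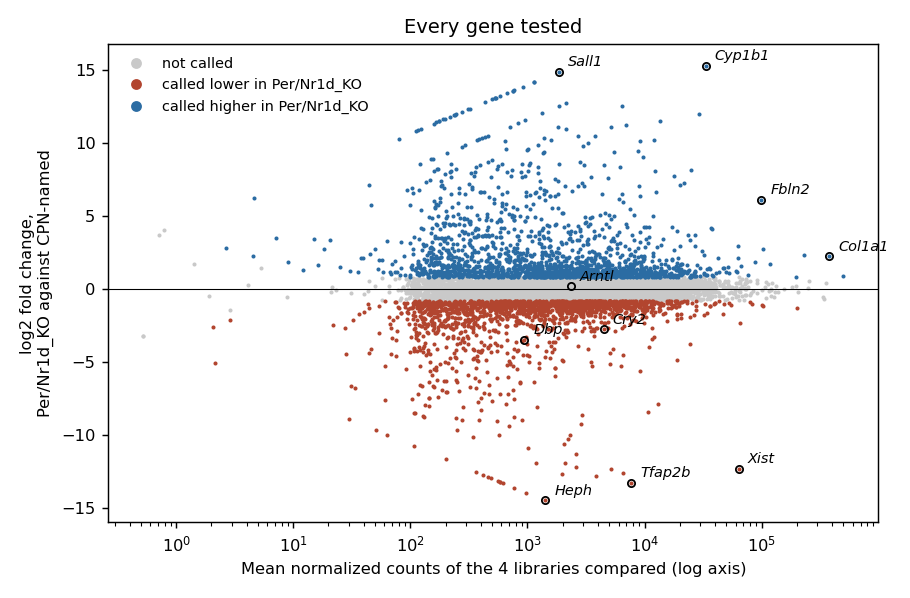
Each point is 1 of the 11934 genes tested, with the mean normalized count of the 4 libraries compared on a log axis and the log2 fold change of Per/Nr1d_KO against the CPN-named libraries. Blue points were called higher (1813) and red points lower (1644), and the diagonal rows of points at the upper and lower edges are genes with a count of 0 in 1 of the pairs.

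Most repressors and output factors of the clock loop list were lower in Per/Nr1d_KO cells, while the activators Clock and Arntl were within the fold limit. Of 21 clock loop genes, 19 were tested, and 12 were lower and 1 was higher, with a median log2 fold change of -1.36 against 0.03 over all genes tested. The size of this depended on the reference, since 9 of the clock loop genes were lower and 4 higher against the third pair, with a median of -0.46. The other 2 did not reach the expression limit. Among the repressors, 9 of 10 were lower, and among the PAR-bZIP output factors and their antagonist, 3 of 4. Against the third pair 6 of the 10 repressors were lower. The median over the 10 repressors was -1.88. Of the 16 members above 100 normalized counts in each compared pair, 10 were lower.

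The genes mutated in these lines were still transcribed in every library, so the presence of their RNA does not check the labels. Cry1 had 5323 and 5478 normalized counts in the CPN-named libraries and 1535 and 1592 in the Per/Nr1d_KO libraries. Cry2 (chromosome 2 of GRCm38, from 92403646 to 92434085) had 7783 and 7824 against 1107 and 1169. Both Cry transcripts were thus lower in the cells that still carry intact Cry genes, by a log2 fold change of -1.79 ± 0.05 (SE, n = 2 per pair) for Cry1 and -2.77 ± 0.05 for Cry2. In the third pair Cry1 was at 1698 and 1724, close to Per/Nr1d_KO, and Cry2 at 6908 and 6476, close to the CPN-named libraries. The Cry1 call therefore depends on the reference, with a log2 fold change of -0.13 against the third pair.

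The Per genes encode the partners of CRY in the repressor complex. Per2 had 6633 and 6838 normalized counts in the CPN-named libraries and 1004 and 1089 in the Per/Nr1d_KO libraries. Per3 had 6395 and 6810 against 1062 and 1038. Per1 had 5644 and 5793 against 2379 and 2106. All 3 Per genes separated the pairs without overlap, with log2 fold changes of -2.68 for Per2, -2.65 for Per3 and -1.36 for Per1. Against the third pair Per1 was at -0.46, within the fold limit.

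Other repressors of the loop changed over a wide range. Bhlhe41 and Bhlhe40 encode the DEC2 and DEC1 factors, which compete for E-boxes. Bhlhe41 had 738 and 725 normalized counts in the CPN-named libraries and 22.8 and 24.5 in the Per/Nr1d_KO libraries, a log2 fold change of -4.93 ± 0.14 (SE, n = 2 per pair), with 19% of its exon bases also in an exon on the opposite strand. Bhlhe40 had 8451 and 8384 against 2318 and 2138. Ciart, whose product CHRONO binds BMAL1 and represses it, had 1456 and 1557 against 425 and 418, with 11.9% of its 50-base stretches also found in another gene. Bhlhe41 was the clock loop gene with the largest change in either direction, at 30.5-fold lower, and Ciart was lower by 3.58-fold.

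Nr1d1 and Nr1d2 encode the REV-ERB receptors, which are mutated in the Per/Nr1d_KO cells. Nr1d1 had 9337 and 9249 normalized counts in the CPN-named libraries and 5359 and 4838 in the Per/Nr1d_KO libraries, a log2 fold change of -0.87 ± 0.05 (SE, n = 2 per pair) just past the limit of 0.81. Without Per/Nr1d_KO replicate 2, Nr1d1 was at -0.79 and was not called. Nr1d2 was at -0.53 and was not called. Both signs turned against the third pair, to 0.69 for Nr1d1 and 0.12 for Nr1d2.

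The output factors DBP, HLF and TEF bind D-boxes, where NFIL3 opposes them. Dbp (chromosome 7, from 45705100 to 45710203) stood at 1675 and 1760 normalized counts in the CPN-named libraries and at 175 and 140 in the Per/Nr1d_KO libraries, a log2 fold change of -3.47 ± 0.10 (SE, n = 2 per pair, adjusted p = 4.46e-14 by the quasi-likelihood test of edgeR). Hlf had 1052 and 1013 against 63.4 and 49.7. Tef had 13182 and 13875 against 6913 and 7365. Dbp was 11.1-fold lower and Hlf 18.7-fold lower, while Tef was 1.89-fold lower. Nfil3, at 3183 and 3401 against 4559 and 4456, lay within the fold limit on the higher side (log2 fold change 0.45). In the third pair Dbp was at 692 and 731, between the other pairs, and 18% of its exon bases are also in an exon on the opposite strand.

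The activators moved little, with 1 exception. Clock had 11977 and 11613 normalized counts in the CPN-named libraries and 8794 and 8565 in the Per/Nr1d_KO libraries. Arntl had 2176 and 2208 against 2493 and 2455. Arntl2, a paralogue of Arntl, had 698 and 690 against 572 and 575. Their log2 fold changes of -0.44, 0.17 and -0.27 all stayed within the fold limit of 0.81. Npas2, a paralogue of Clock, was the exception, with 64.6 and 67.8 against 312 and 260, a log2 fold change of 2.09 ± 0.16 (SE, n = 2 per pair, adjusted p = 4.97e-09 by the quasi-likelihood test of edgeR). Rora, which activates through the elements that NR1D represses, was at -0.17. Against the third pair Arntl was higher by 1.07 and Rora by 1.20, both past the limit, as was Nfil3 (1.03). Arntl2 changed its sign there (0.47).

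**Figure D2:**
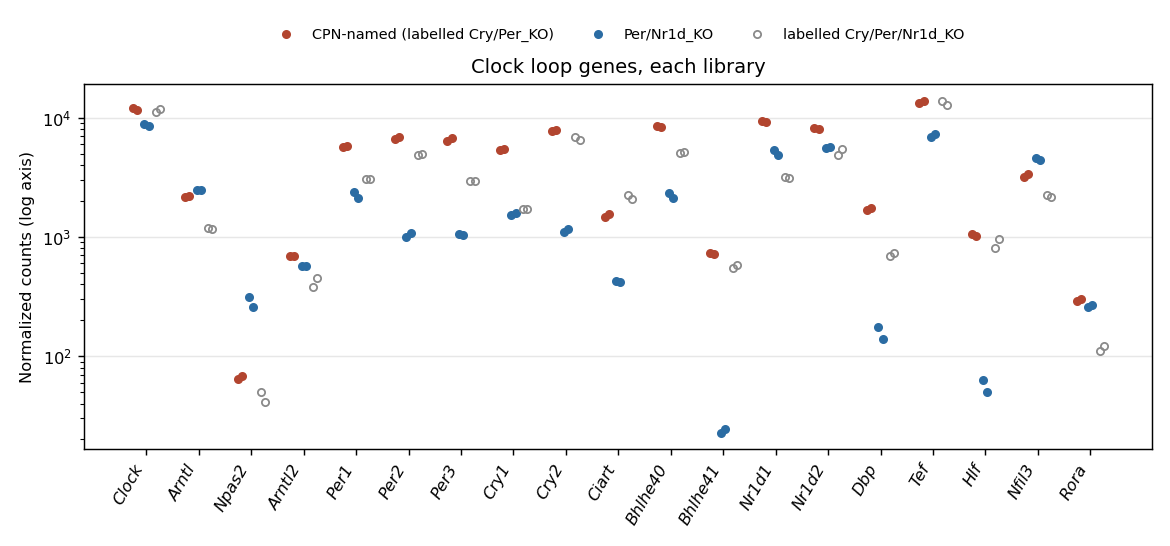
Normalized counts of the 19 clock loop genes tested, on a log axis, with 1 point per library (2 per pair) for the CPN-named pair, Per/Nr1d_KO and the third pair, shown in the legend by its label Cry/Per/Nr1d_KO. Per/Nr1d_KO points sit below both other pairs for Clock, Per1, Per2, Per3, Cry1, Cry2, Ciart, Bhlhe40, Bhlhe41, Dbp, Tef and Hlf, and above both for Arntl, Npas2 and Nfil3.

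The promoters of these genes were searched for the palindromic E-box CACGTG, since the many clock loop genes are known to be driven through E-boxes. Of the 18 members with a promoter in the RefSeq table of GRCm38.p6, 5 (27.8%) held the E-box in the 250 bases before the start site: Per1, Cry1, Ciart, Bhlhe41 and Tef. All 5 were called lower. The share was 6.0% over 27025 promoters of this length and 8.7% over the genes tested. It was 8.4% over genes called lower, 7.4% over genes called higher and 9.0% over genes that were not called. The E-box in this window was thus no more frequent among genes called lower than among all genes tested. The 3 promoters below are those of the E-box members with the largest decreases, read 5′ to 3′ on the strand of the gene, with the E-box in capitals. The Bhlhe41 window is chr6:145865421-145865670, that of Ciart chr3:95882229-95882478 and that of Cry1 chr10:85185055-85185304, all on the minus strand.
Bhlhe41: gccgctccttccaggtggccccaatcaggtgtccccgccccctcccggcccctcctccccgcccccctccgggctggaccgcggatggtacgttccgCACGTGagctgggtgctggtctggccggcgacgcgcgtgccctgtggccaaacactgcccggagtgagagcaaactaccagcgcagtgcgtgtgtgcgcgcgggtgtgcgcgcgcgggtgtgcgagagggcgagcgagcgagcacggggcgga
Ciart: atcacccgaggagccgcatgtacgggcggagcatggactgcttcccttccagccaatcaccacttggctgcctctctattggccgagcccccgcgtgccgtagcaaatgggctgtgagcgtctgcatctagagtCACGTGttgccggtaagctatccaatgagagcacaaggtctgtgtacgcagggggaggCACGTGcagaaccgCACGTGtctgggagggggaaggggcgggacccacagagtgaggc
Cry1: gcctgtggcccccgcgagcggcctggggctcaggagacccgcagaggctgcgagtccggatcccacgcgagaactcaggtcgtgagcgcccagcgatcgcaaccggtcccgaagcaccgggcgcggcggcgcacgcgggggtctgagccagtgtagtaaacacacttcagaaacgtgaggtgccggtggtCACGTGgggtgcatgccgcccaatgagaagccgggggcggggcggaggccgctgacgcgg
The E-box starts 153 bases before the start site in Bhlhe41 and 60 bases before it in Cry1. Ciart holds 3 copies, at 116, 58 and 44 bases before its start site.

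Of 17 further genes known as clock outputs in other tissues 15 were tested, and 1 was higher and 2 were lower (20%, against 29.0% of all genes called), with a median log2 fold change of 0.03. Ppp1r3b, a glycogen-targeting phosphatase subunit, had 564 and 602 normalized counts in the CPN-named libraries and 50.7 and 37.1 in the Per/Nr1d_KO libraries. Usp2, a deubiquitinase, had 247 and 316 against 152 and 141, and its log2 fold change was -0.76, within the limit, without CPN-named replicate 2. The Usp2 call was also lost with the median of each chromosome subtracted. Nampt, the rate-limiting enzyme of NAD salvage, Klf9 and Rgs16 lay between 0.03 and 0.15 on the log2 scale.

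Of 17 kinases and ubiquitin ligases that modify PER and CRY, all tested, 2 were lower (11.8%, against 13.8% of all genes) and the rest were not called, with a median of 0.01. Prkaa2, the AMPK subunit alpha 2, which phosphorylates CRY1, had 1275 and 1361 normalized counts in the CPN-named libraries and 215 and 259 in the Per/Nr1d_KO libraries. Fbxl21, a ligase subunit that acts on CRY, had 154 and 200 against 74.8 and 104. The Fbxl21 call was lost without Per/Nr1d_KO replicate 1 (-0.77) or CPN-named replicate 2 (-0.74), and its sign changed against the third pair (1.39).

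None of the 10 corepressor subunits tested was called by edgeR, nor by DESeq2, although 4 were higher and 4 lower at an unadjusted p under 0.05. These include Ncor1 and Hdac3, which NR1D recruits, and Sin3a, which PER complexes recruit. Sin3a had the largest change, from 11054 and 10714 normalized counts to 6445 and 6394 (log2 fold change -0.76). Among 15 genes of NAD metabolism and the sirtuins, 2 were higher and 3 lower (33.3% called, against 29.0% of all genes). With both compared pairs above 100 normalized counts there were 13, of which 1 was higher and 2 lower. Nnmt, which methylates nicotinamide, had 1557 and 1496 normalized counts in the CPN-named libraries and 3.80 and 3.16 in the Per/Nr1d_KO libraries, a log2 fold change of -8.76 ± 0.18 (SE, n = 2 per pair). Nmnat2 was lower by 2.42 on the log2 scale and Naprt and Sirt6 were higher, by 1.76 and 0.91. Nmnat2 (-0.74) and Sirt6 (0.66) were not called against the third pair.

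CRY also binds nuclear receptors, the glucocorticoid receptor among them, and limits cAMP signalling, so the targets of both were examined. Of 15 glucocorticoid receptor genes tested, 4 were higher and 6 lower, with a median of 0.05. Above 100 normalized counts in each compared pair were 14, with 3 higher and 6 lower. Nr3c1, the receptor itself, had 13458 and 13468 normalized counts in the CPN-named libraries and 7313 and 7415 in the Per/Nr1d_KO libraries, a difference that was not called against the third pair (-0.38). Pdk4, a kinase that limits pyruvate oxidation, had 1825 and 1715 against 175 and 185. Tsc22d3, which encodes the glucocorticoid-induced protein GILZ, had 4525 and 4820 against 1283 and 1231. Other targets went the other way: Angptl4, a lipase inhibitor, was higher by 3.24 on the log2 scale and Lcn2 by 2.44. The list therefore did not move in 1 direction, with 66.7% of its tested members called.

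Among 11 cAMP-CREB targets tested, 2 were higher and 2 lower (36.4% called, against 29.0% of all genes), and the median was -0.04. With both compared pairs above 100 normalized counts there were 9, of which 1 was higher and 1 lower. Pde4b, a cAMP phosphodiesterase, had 75.7 and 70.7 normalized counts in the CPN-named libraries and 2213 and 2282 in the Per/Nr1d_KO libraries. Rgs2, a regulator of G protein signalling, had 313 and 340 against 3.80 and 8.68. Fos was higher by 1.88 and Crem lower by 1.12 on the log2 scale, the latter with a change of sign against the third pair (0.24). The Crem call was also lost with the median of each chromosome subtracted.

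Interferon-stimulated and antigen presentation genes were higher in Per/Nr1d_KO cells almost throughout. Of 27 members 26 were tested, and 24 were called higher, with a median log2 fold change of 3.93 against 0.03 over all genes tested. The 2 that were not called were Ifit2 and Tap2, of which Tap2 was called against the third pair (2.23). Of the 23 above 100 normalized counts in each compared pair, 21 were higher. The summed level of the 27 genes was 56712 and 55124 normalized counts in the CPN-named libraries and 442739 and 433426 in the Per/Nr1d_KO libraries. With the third pair as reference 25 members were higher, so most of the list was higher with either reference. The sizes differed, for example 10.92 on the log2 scale for Oas1a against 7.12 with the third pair.

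IRF9 is part of a complex that binds interferon-stimulated response elements (ISREs). Irf9 had 1253 and 1201 normalized counts in the CPN-named libraries and 8529 and 8675 in the Per/Nr1d_KO libraries. Irf7, which amplifies the response, had 243 and 253 against 8943 and 9034. Both separated the pairs without overlap, and the means of Irf9 differed by 7.01-fold. Isg15, a ubiquitin-like modifier, had 216 and 236 against 17697 and 18650, a fold of 80.3. Rsad2, which encodes the antiviral enzyme viperin, had counts of 0 in both CPN-named libraries and 620 and 619 normalized counts in the Per/Nr1d_KO libraries, at least 197-fold higher when 3 counts per library are allowed. Oas1a, a sensor of double-stranded RNA, had 1.11 and 2.95 against 4235 and 4319, with 57.6% of its 50-base stretches also found in other genes. In antigen presentation, H2-K1 had 3284 and 3360 against 42736 and 43905, and B2m, the light chain of class I molecules, had 24324 and 22401 against 108357 and 97557.

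For the ISRE, a pair of TTTC blocks with 2 bases of any kind between them was searched on both strands of the same promoter windows, with overlapping matches counted. Of 22 list members with a promoter in the table, 10 (45.5%) held the motif, against 2.5% of genes tested and 3.0% of 27025 promoters. Among genes called higher the share was 5.0%, among genes called lower 1.8%, and among genes that were not called 2.2%. The 3 windows below belong to members with some of the largest increases, with matches in capitals. They are chr4:156200819-156201068 for Isg15, chr5:120907526-120907775 for Oas1a and chr12:26456453-26456702 for Rsad2, all on the minus strand.
Isg15: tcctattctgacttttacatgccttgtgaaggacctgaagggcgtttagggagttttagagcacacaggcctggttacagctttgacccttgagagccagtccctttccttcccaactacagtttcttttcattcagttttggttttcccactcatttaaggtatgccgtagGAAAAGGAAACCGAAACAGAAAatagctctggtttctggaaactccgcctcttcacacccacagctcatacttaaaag
Oas1a: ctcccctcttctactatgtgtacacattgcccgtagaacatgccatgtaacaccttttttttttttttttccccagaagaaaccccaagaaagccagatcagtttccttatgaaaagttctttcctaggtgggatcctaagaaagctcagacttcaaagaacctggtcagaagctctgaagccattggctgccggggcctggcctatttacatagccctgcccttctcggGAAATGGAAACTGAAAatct
Rsad2: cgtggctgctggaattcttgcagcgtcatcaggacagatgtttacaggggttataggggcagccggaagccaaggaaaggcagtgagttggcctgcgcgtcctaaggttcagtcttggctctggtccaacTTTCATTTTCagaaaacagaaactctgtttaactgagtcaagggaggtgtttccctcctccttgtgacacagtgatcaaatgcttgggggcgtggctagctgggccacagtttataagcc
Isg15 has 3 overlapping matches from 78 bases before its start site, Oas1a has 2 from 20 bases before it, and Rsad2 has 1 at 120 bases before it.

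Inflammatory genes downstream of NF-kB were higher as well. Of 28 members 23 were tested and 16 were called higher, and the other 7 were not called, with a median of 1.72. In the 22 above 100 normalized counts in each compared pair, 15 were higher. Chemokines led the list, with 7 of 8 tested members higher and a median of 3.52. Cxcl5, a neutrophil attractant, had 189 and 153 normalized counts in the CPN-named libraries and 35921 and 35750 in the Per/Nr1d_KO libraries, 210-fold higher. Ccl5 had 214 and 196 against 4393 and 4146. Cxcl1 had 3761 and 3942 against 49147 and 50610. Il6 had 59.0 and 59.9 against 582 and 603, while Tnf and Il1b were at or near 0 in all 4 libraries. Of the regulators, Nfkb1 and Tnfaip3 were called higher, and Nfkbia, Relb, Nfkb2 and Birc3 were not called. The reference changed this for Nfkb1 (0.28 against the third pair, not called) and Nfkbia (1.53, called). Macrophages and other haematopoietic cells also express these genes, and their marker Cd68 was higher (141 and 161 against 276 and 258, a call lost without Per/Nr1d_KO replicate 1 or CPN-named replicate 1), while Ptprc and Adgre1 were at or below 3.95 normalized counts and Lyz2 was at 67.9 and 66.8 against 8.87 and 9.47.

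Targets of p53 were also higher. Of 21 pathway members 20 were tested. Of these 16 were called higher (15 of the 19 above 100 normalized counts in each compared pair), and the other 4 were not called. Trp53 itself was among the latter, with a log2 fold change of 0.69. Cdkn1a, which encodes the cell cycle inhibitor p21, had 5997 and 6490 normalized counts in the CPN-named libraries and 24464 and 24154 in the Per/Nr1d_KO libraries. Perp, a desmosomal p53 target, had 39.0 and 25.5 against 2378 and 2533. Eda2r, a death receptor family member, had 319 and 362 against 5175 and 5436. Plk2 was higher by 2.96 and Btg2 by 3.09 on the log2 scale. The number higher against the third pair was 14.

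Of 19 INK4, ARF, RB and G1 genes, 2 were higher and 5 lower (36.8% called, against 29.0% of all genes). In the 18 above 100 normalized counts in each compared pair, 1 was higher and 5 lower. Ccnd2, which encodes cyclin D2, had 44870 and 45546 normalized counts in the CPN-named libraries and 3440 and 3198 in the Per/Nr1d_KO libraries. Ccnd1, for cyclin D1, had 12421 and 12804 against 2441 and 2402, with 23.4% of its exon bases also in an exon on the opposite strand. Cdkn1c, for the inhibitor p57, had 3.34 and 3.93 against 1191 and 1012, with 30.7% of its exon bases also in an exon on the opposite strand. These cyclins were lower and p57 was higher, the D-type cyclin gene Ccnd3 was not called (-0.08, and 0.02 against the third pair), and Cdkn2a was at a log2 fold change of 0.07. Of 26 genes of DNA replication and mitosis, all tested, 2 were lower (7.69%, against 13.8% of all genes). These were Ccnb2, lower by 1.96, and Foxm1, by 1.45 on the log2 scale. The rest were not called, and the median of the list was 0.01.

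Of 11 members of the MYC network tested 2 were lower (18.2%, against 13.8% of all genes), Mycl (834 and 957 against 62.1 and 63.1 normalized counts) and Mxi1 (log2 fold change -0.82, or -0.75 and not called without Per/Nr1d_KO replicate 2), and Myc itself was at 0.49. Mxi1 was at 0.10 against the third pair. Of 20 ribosome biogenesis genes 10 were called higher, by at most 1.19 on the log2 scale, which was the value of Rrp12 (0.12 and not called against the third pair). This list depended on the reference: against the third pair the 1 member called was lower, and the median was -0.14 in place of 0.78. With the median of each chromosome subtracted, 3 members were higher.

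By fitted log2 fold change, the gene with the largest increase was in the aryl hydrocarbon receptor (AHR) pathway, though genes with 0 counts in the CPN-named pair have only a lower bound. Cyp1b1 (chromosome 17, from 79706940 to 79715061), an oxygenase that AHR induces, had 2.23 and 0.98 normalized counts in the CPN-named libraries and 65345 and 67586 in the Per/Nr1d_KO libraries. These levels rest on 3 reads in the CPN-named pair, and the ratio has a 95% exact counting interval from 14589 to 206749. In the third pair Cyp1b1 was at 1020 and 1067. Ahr had 1141 and 1239 against 8930 and 8509, Ahrr, its repressor, 94.6 and 99.2 against 432 and 549, and Arnt, its partner, was higher by 1.13 on the log2 scale (0.31 and not called against the third pair). The other targets did not follow: Nqo1, Tiparp and Ugt1a6a were not called, at -0.61, -0.31 and -0.12, and Cyp1a1 stayed below 5 normalized counts in all 4 libraries. In all, 4 of 7 members tested were higher. Of the 5 above 100 normalized counts in each compared pair, 2 were higher. Against the third pair Nqo1 and Tiparp were lower, by 1.10 and 1.21.

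Many genes that mark position along the body axes were expressed in 1 of the lines and at or near 0 in the other. The Hox genes are arranged in 4 clusters and are expressed by position in the embryo, with the 5′ members of the Hoxa and Hoxd clusters active in distal limb. Of 39 Hox genes 17 were tested, and 12 were higher and 2 lower in Per/Nr1d_KO cells. Of these 17, 15 were under a mean of 100 normalized counts in at least 1 of the compared pairs and passed the expression limit through another pair, so this count is a description and no support for a direction. The 22 that were not tested include Hoxb5, Hoxb6, Hoxc8 and Hoxc12, with 0 counts in all 4 libraries.

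Hoxa11 (chromosome 6, from 52242105 to 52245810) had counts of 0 in both CPN-named libraries and 1856 and 1782 normalized counts in the Per/Nr1d_KO libraries, at least 579-fold higher, with 35% of its exon bases also in its antisense gene Hoxa11os. Hoxa9 had 0 against 1044 and 953, and Hoxa13 had 0 against 579 and 525. Hoxa10 had 0 and 4.91 against 3208 and 3091. In the same cluster Hoxa3 was lower by 1.25 on the log2 scale and Hoxa5 was higher by 1.06 on the log2 scale. Against the third pair Hoxa3 was higher, by 1.50, and 25.4% of its exon bases are also in an exon on the opposite strand. In the Hoxd cluster, Hoxd13 had 2.23 and 1.96 against 13200 and 12547, and Hoxd10, Hoxd11 and Hoxd12 were likewise at or near 0 in the CPN-named libraries and between 340 and 1480 in the Per/Nr1d_KO libraries. Hoxc13 was the 1 Hoxc gene tested, with 57.9 and 65.8 against 0 and 0.79. The third pair held the same 5′ Hoxa and Hoxd genes at lower levels than Per/Nr1d_KO, for example Hoxa11 at 218 and 214, and also expressed Hoxb9 (927 and 1004) and Hoxc8 (146 and 164), which were at or near 0 in both other pairs.

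**Figure D3:**
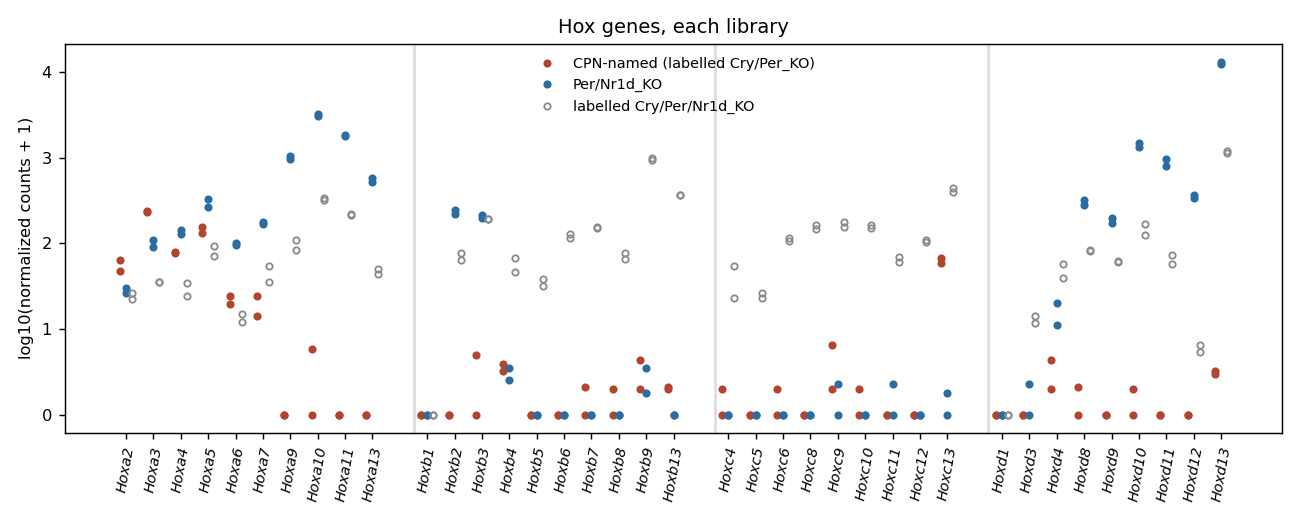
Levels of Hox genes as log10 of normalized counts plus 1, with 1 point per library, and the 4 clusters set apart by vertical lines. The Per/Nr1d_KO points lie near or above 2 for Hoxa9 to Hoxa13 and Hoxd8 to Hoxd13, where the CPN-named points lie below 1.

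Of 60 other positional transcription factors 42 were tested, and 14 were higher and 19 lower. Here too 22 of the 42 were under 100 normalized counts in at least 1 compared pair. Among the 20 above it in both pairs, 6 were higher and 7 lower, against 12.5% and 11.3% of genes tested at that level. Sall1, a zinc finger factor of kidney and limb, had 0 counts in both CPN-named libraries and 3866 and 3542 normalized counts in the Per/Nr1d_KO libraries. Pitx1, a hindlimb factor, had 0 against 2455 and 2111. Hand2, a factor of posterior limb and branchial arch, had 0 against 1185 and 978, with 19.6% of its exon bases also in an exon on the opposite strand. These factors were seen in Per/Nr1d_KO cells alone of the 2 lines compared, at least 1179-fold, 727-fold and 344-fold higher. Pitx1 and Hand2 were present in the third pair, Pitx1 at 591 and 630, and Sall1 was not.

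In the opposite direction, several factors were at or near 0 in Per/Nr1d_KO cells. Alx4, a factor of craniofacial and limb mesenchyme, had 7674 and 7743 normalized counts in the CPN-named libraries and 2.53 and 0 in the Per/Nr1d_KO libraries. Pax3, a factor of neural crest and somites, had 5163 and 5321 against 2.53 and 1.58. Irx1 and Irx2 had 0 counts in both Per/Nr1d_KO libraries. Tfap2b, a neural crest factor outside the list, had 15563 and 15256 against 3.80 and 0, a ratio with a 95% exact counting interval from 3612 to 51188. Tbx15 went the other way, at 1712 and 1723 against 20457 and 20134. Alx4, Pax3, Irx1 and Tfap2b were present in the third pair as in the CPN-named libraries.

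The remaining genes with the largest changes are of mixed function. Among the 10 largest increases by fitted log2 fold change, Bhlhe22, Hoxa11os, Mab21l2, Vnn1 and Il1rl2 had counts of 0 in both CPN-named libraries. Their levels in the Per/Nr1d_KO libraries ran from 1331 for Il1rl2 to 2368 for Bhlhe22, and their increases were at least 424-fold to at least 723-fold. Mab21l2 shares 36% of its exon bases with Lrba on the opposite strand. Among the 10 largest decreases, Heph, a ferroxidase, had 2805 and 2856 normalized counts in the CPN-named libraries and 0 counts in both Per/Nr1d_KO libraries, at least 918-fold lower. Grk3, Igsf1, Ldb2, Pgm5, Pcdh9, 3110039M20Rik, Irx1 and Adamts9 also had 0 counts in both Per/Nr1d_KO libraries, at least 300-fold to at least 636-fold lower. Vnn1, like Sall1, was at 0 in the third pair, and Heph was at 336 and 378 there.

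Many genes of the extracellular matrix were higher in Per/Nr1d_KO cells. Of 25 collagen genes 20 were tested, and 11 were higher and 3 lower, with a median of 1.36. Of the 17 above 100 normalized counts in each compared pair, 8 were higher and 3 lower. All but 1 of the 8 fibrillar collagen genes tested were higher, and 5 of the 6 above that level in each pair. Col1a1, the main collagen of fibroblasts, had 126050 and 136728 normalized counts in the CPN-named libraries and 627940 and 616037 in the Per/Nr1d_KO libraries. Col3a1 had 289 and 296 against 42810 and 43797. Col2a1, the cartilage collagen, had 12.2 and 16.7 against 58125 and 58302. The changes spanned from 4.73-fold for Col1a1 to 148-fold for Col3a1 and 3952-fold for Col2a1. Acan, a further cartilage gene, was at 0 and 0.98 against 87.5 and 87.6, whereas Sox9, which drives both in cartilage, was lower (1944 and 2075 against 667 and 563). Acan was lower by 1.78 against the third pair. Col4a5 and Col8a1 were lower by 2.34 and 2.09 on the log2 scale.

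Of 26 further matrix and remodelling genes tested, 18 were higher and 4 lower, with a median of 1.43. In the 24 above 100 normalized counts in each compared pair, 16 were higher and 4 lower. Fbln2, a matrix glycoprotein, had 2907 and 2772 normalized counts in the CPN-named libraries and 198761 and 193817 in the Per/Nr1d_KO libraries. Vcan, a proteoglycan, had 4035 and 3889 against 69864 and 69049. Loxl2, a collagen cross-linking enzyme, had 16.7 and 13.7 against 2538 and 2545, with 45% of its 50-base stretches also found in other genes. The 4 lower members were Fbln5, Mmp3, Timp2 and Timp3, Fbln5 by 1.77 and Mmp3 by 1.75 on the log2 scale, and Timp2 was not called against the third pair (-0.48). The counts against the third pair were 16 higher and 4 lower.

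Contractile genes were mixed, with 5 higher and 2 lower of 13 tested. In the 11 above 100 normalized counts in each compared pair, 3 were higher and 2 lower. Cnn1, which encodes calponin, had 18.9 and 23.6 normalized counts in the CPN-named libraries and 3633 and 3687 in the Per/Nr1d_KO libraries. Tagln had 31782 and 33178 against 7888 and 8432, with 67.9% of its exon bases also in an exon on the opposite strand. Ccn1 was higher by 2.10 and Lmod1 lower by 1.17 on the log2 scale, and Acta2 was not called (0.79). Lmod1 was not called against the third pair (-0.67). Of 10 cadherins and protocadherins tested, 4 were higher and 5 lower. Of the 7 above 100 normalized counts in each compared pair, 2 were higher and 4 lower. Cdh3, P-cadherin, had 42.3 and 34.4 against 19967 and 18985. Cdh10 had 0 against 469 and 468. Pcdh9 had 1170 and 1147 against 0, and Pcdh19 had 9953 and 9727 against 309 and 265. Cdh3 and Cdh10 reached the expression limit through Per/Nr1d_KO alone, so their calls are a description. Cdh2 and Cdh11, the cadherins of mesenchyme, were lower by 1.77 and 4.54 on the log2 scale.

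In the Wnt pathway 21 of 30 genes were tested, and 7 were higher and 5 lower, with a median of 0.17. Of the 14 above 100 normalized counts in each compared pair, 5 were higher and 2 lower. Wnt5a, a non-canonical ligand, had 3964 and 4177 normalized counts in the CPN-named libraries and 5.07 and 0.79 in the Per/Nr1d_KO libraries. Sfrp2, a secreted inhibitor, had 10.0 and 8.84 against 28723 and 25088, with 16.1% of its exon bases also in an exon on the opposite strand. Lef1, a transcription factor and target of the pathway, had 155 and 190 against 52.0 and 44.2. Nkd1, another target, was higher by 5.73 on the log2 scale against the CPN-named libraries and lower by 1.39 against the third pair.

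Of 24 TGF-beta and BMP genes tested 8 were higher and 4 lower, against 15.2% and 13.8% of all genes. By role, the ligands were higher in 5 of 7 cases, the inhibitors were lower in 4 of 7, and the 6 receptors stayed within the fold limit. Differences between the roles were not tested. Tgfb2 had 407 and 358 normalized counts in the CPN-named libraries and 4311 and 3899 in the Per/Nr1d_KO libraries. Grem1, a BMP antagonist, had 26353 and 25944 against 129 and 95.5. Nog, which encodes noggin, had 386 and 385 against 2.53 and 6.31. Fst, for follistatin, was the inhibitor that was higher (log2 fold change 2.80), with 91.3 and 111 against 715 and 701. The third pair held 573 and 574, and the difference from it was 0.30 and not called. Id1, a BMP target, had 654 and 672 against 4090 and 4136.

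Of 21 FGF, PDGF and IGF genes tested, 7 were higher and 7 lower, with a median of -0.17. Above 100 normalized counts in each compared pair were 17, with 5 higher and 5 lower. Both PDGF receptors were lower, Pdgfra at 9870 and 9673 normalized counts in the CPN-named libraries against 4140 and 4148 in the Per/Nr1d_KO libraries. The IGF binding proteins diverged: Igfbp3 had 27.8 and 24.5 against 606 and 492, Igfbp6 had 633 and 692 against 17.7 and 26.8, and Igfbp2 was lower by 2.71 on the log2 scale. Of 12 imprinted genes tested, 5 were higher and 1, Plagl1, lower by 1.87. With both compared pairs above 100 normalized counts there were 8, of which 3 were higher and Plagl1 lower. Igf2 reached the expression limit through the third pair alone. Igf2 had 2.23 and 6.87 against 35.5 and 28.4, with 62.8% of its exon bases shared with another gene on the same strand. Igf2 and Igfbp3 had the opposite sign against the third pair, at -4.07 and -1.08.

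Of 25 glycolysis and hypoxia genes tested, 9 were lower and 1, Vegfa, was higher by 0.96, with a median of -0.74. Eno2 had 1250 and 1276 normalized counts in the CPN-named libraries and 323 and 353 in the Per/Nr1d_KO libraries, and Pkm, the last enzyme of glycolysis, had 142466 and 145206 against 61963 and 62811. Of the 50-base stretches of Pkm 25.8% are also found in other genes, and of those of Gapdh 25.1%, so their counts may include or lose reads of those genes. Slc16a3, a lactate exporter, was lower by 2.11 on the log2 scale. Gapdh, often taken as a reference gene, had 238 and 233 against 129 and 149 (-0.74, not called, but -0.86 and called without Per/Nr1d_KO replicate 2). These low counts are not read as the level of Gapdh RNA. Its shared stretches lie in 223 other genes, those of Pkm in 8, and the treatment of multi-mapping reads is not known. Pkm (-0.75), Slc16a3 (-0.62) and Vegfa (0.64) were not called against the third pair. This list too depended on the reference, with 1 member lower and 3 higher against the third pair and a median of 0.02. Of 21 cholesterol synthesis genes tested 14.3% were called, against 29.0% of all genes. Higher were 2, Fdps (26.7% of its exon bases shared with another gene on the same strand) and Dhcr7, by 1.42 and 1.39. Sc5d was lower by 1.18. The calls of Fdps and Sc5d were lost with the median of each chromosome subtracted. Fdps (-0.62) and Dhcr7 (-0.42) changed sign against the third pair. With the third pair as reference, all 11 of the cholesterol genes called were lower, and the median was -0.83 in place of 0.19.

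**Figure D4:**
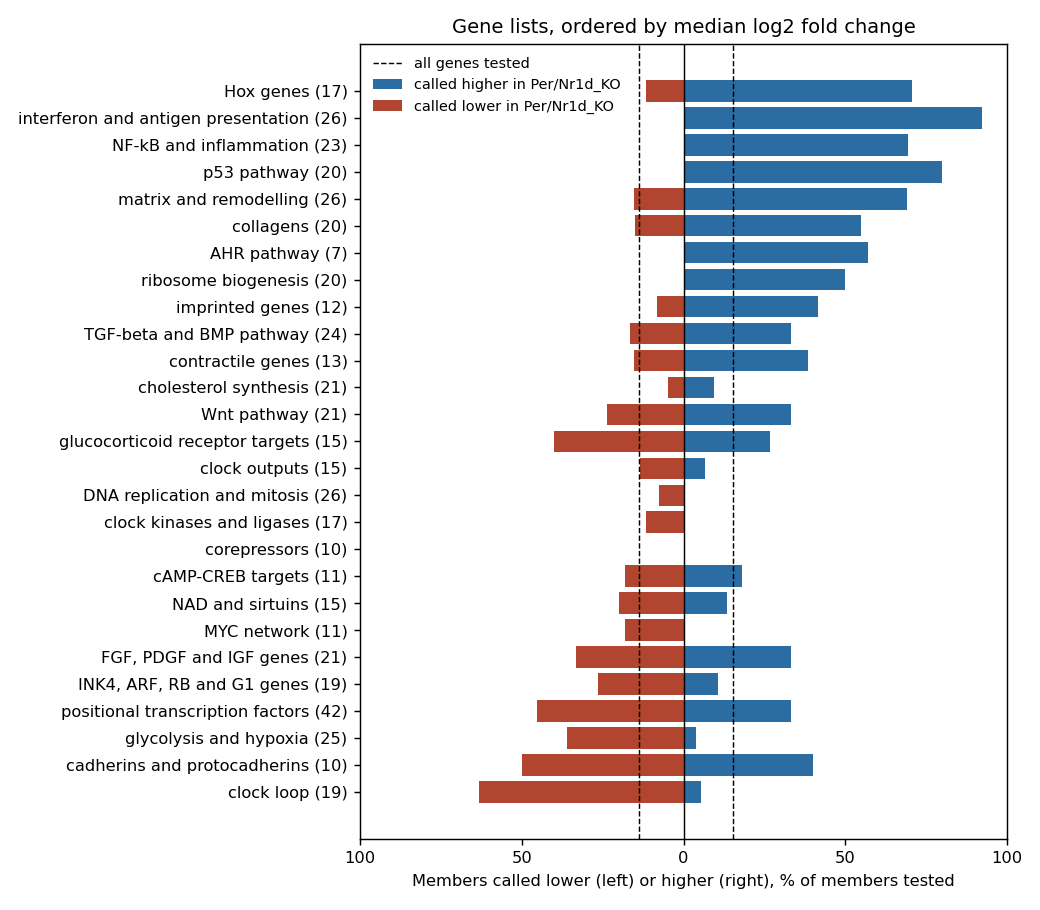
Share of the tested members of each list that was called higher (blue, to the right) or lower (red, to the left) in Per/Nr1d_KO cells, with the number tested in brackets and lists ordered by their median log2 fold change. Dashed lines mark the shares over all genes tested, 15.2% higher and 13.8% lower. The clock loop lies at the bottom with 12 of 19 members lower, and the interferon, NF-kB and p53 lists lie near the top.

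Differences between the lines also followed chromosomes. On chromosome 3, 60.7% of 577 genes tested were called, 319 higher and 31 lower, with a median log2 fold change of 0.88. On chromosome 9, 56.6% of 657 were called, 27 higher and 345 lower, with a median of -0.84. Chromosome 14 had a median of 0.62, chromosome 18 of -0.45 and chromosome 6 of -0.41, and the others lay between -0.23 and 0.35. The medians against the third pair were 0.24 for chromosome 3, -0.46 for chromosome 9, 0.52 for chromosome 14, -0.21 for chromosome 18 and -0.08 for chromosome 6. With the chromosome medians subtracted, 2766 genes were called. The genes called higher in Per/Nr1d_KO cells then numbered 1390 and the genes called lower in Per/Nr1d_KO cells 1376, and 13 of the 19 clock loop genes were lower and 24 of the 26 interferon genes higher. The part of chromosome-wide shifts in the single-gene values above was not tested beyond this.

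**Figure D5:**
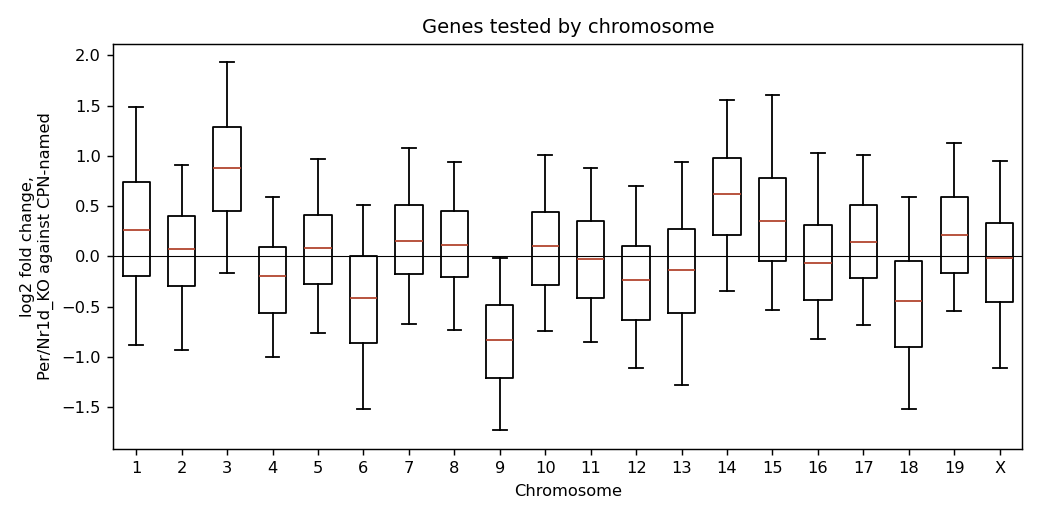
Log2 fold changes of the genes tested on each chromosome, with boxes spanning the quartiles, red lines at the median and whiskers from the 10th to the 90th percentile. The boxes of chromosomes 3 and 14 lie above 0 and that of chromosome 9 below it.

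Xist, the RNA that coats the inactive X chromosome, had 134902 and 119755 normalized counts in the CPN-named libraries and 41.8 and 14.2 in the Per/Nr1d_KO libraries, a log2 fold change of -12.31 ± 0.16 (SE, n = 2 per pair). The third pair had 46076 and 52290. The Y-linked genes Ddx3y, Eif2s3y, Kdm5d and Uty had counts of 0 in all 6 libraries. Over 390 genes of the X chromosome the median log2 fold change was -0.02. The part of the lines' origin in any of the differences above was not tested.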

How the data were processed

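RNA-seq counts of 6 libraries from 3 immortalized MEF lines were used, 2 per line, and 4 of them were compared. Alignment by the authors used STAR and the mm10 genome, and featureCounts gave the read counts, which were deposited per Entrez Gene ID as whole numbers without normalization. The strand setting and the treatment of multi-mapping reads are not given in the sources used here. The authors also deposited DESeq2 1.22.2 comparison tables, which hold the baseMean, log2 fold changes with standard errors, p-values and adjusted p-values. Those tables were not used. Library totals ran from 53764390 to 85927236 counts, and with 2 libraries per pair every spread rests on 2 values.

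Symbols came from RefSeq GRCm38.p6, the assembly of mm10, and 25275 of 27179 IDs matched. The software was R 4.3.3 and edgeR 4.0.16. All 6 libraries entered 1 quasi-likelihood fit (glmQLFit, glmQLFTest) of 3 groups with TMM normalization, without a replicate block. Genes were tested where their mean reached 100 normalized counts, and p-values were adjusted by Benjamini-Hochberg over all 11934. A gene was called at an adjusted p under 0.05 and a fold above 1.75. The standard error is the log2 fold change divided by the square root of F, and its median was 0.06 over genes tested and 0.11 over the 113 genes fixed by the rule below.

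The genes compared, the lists and the tests were chosen with earlier results of these data known. The rule named each clock loop member, Gapdh, the 10 largest increases and decreases, and in each other list up to 2 called members in each direction. Further list members were named as examples after their values were seen. Some list members count in the totals but are not reported here by name. Lists are described by counts and medians beside those of all genes tested, without a set test. Exon overlaps and shared 50-base stretches came from GENCODE vM21, and promoters are the 250 bases before 1 RefSeq start site per gene. On simulated counts for 11912 genes of this comparison, edgeR and DESeq2 1.42.0 each recovered 95 of 97 genes changed 2-fold and 100 of 103 changed 4-fold, with 0 false calls. The direction was checked for edgeR only. The simulation gave every gene the same small spread and only changes above the fold limit. It therefore checks that the steps run as intended, and does not measure error rates in these lines. The alternatives tried were DESeq2 with adjusted p limits of 0.05 and 1e-22, median-of-ratios scaling, other expression limits, no fold limit, glmTreat, the 4 libraries alone, a replicate block, each compared library left out, the genotype labels followed, and chromosome medians subtracted.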

Additional observations from a re-analysis of the deposited data

How the results depend on the processing

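The count of 3457 called genes was 3457 with DESeq2 (3423 shared), 3462 with median-of-ratios scaling, 2841 with glmTreat, 2592 with DESeq2 at an adjusted p under 1e-22 and 3456 with the 4 libraries alone. It rose to 4996 (2514 higher, 2482 lower) with the expression limit at 10 normalized counts, to 5590 (2818 higher, 2772 lower) without an expression limit, where more genes were tested, and to 9793 (5104 higher, 4689 lower) without the fold limit. Leaving out 1 library at a time gave 3434 to 3496, with 1757 to 1877 genes called higher in Per/Nr1d_KO and 1619 to 1677 genes called lower in Per/Nr1d_KO. With the genotype labels followed, so that the third pair was the reference, 2468 genes were called and 1896 were shared. Single genes are given here for the 113 genes fixed by the rule only, and calls of other genes ended too. With the labels followed the signs turned for Arntl2 (0.47), Crem (0.24), Dhcr7 (-0.42), Fbxl21 (1.39), Fdps (-0.62), Hoxa3 (1.50), Igf2 (-4.07), Igfbp3 (-1.08), Mxi1 (0.10), Nkd1 (-1.39), Nr1d1 (0.69), Nr1d2 (0.12), Polr1b (-0.13) and Rora (1.20), and the cause was not tested. It also ended 9 calls without a change of sign, those of Cry1 (-0.13), Per1 (-0.46), Slc16a3 (-0.62), Lmod1 (-0.67), Nmnat2 (-0.74), Rrp12 (0.12), Fst (0.30), Vegfa (0.64) and Sirt6 (0.66), and brought calls of Arntl (1.07) and Nfil3 (1.03). Chromosome medians subtracted left 2766 calls (2469 shared), and among the 113 turned Arntl2 (0.14) and Rora (0.67), ended the calls of Crem, Fdps, Sc5d, Usp2 and Sirt6, and brought a call of Nr1d2 (-1.15). Of these 113 genes, glmTreat ended the calls of 5 (Fbxl21, Mxi1, Nr1d1, Sirt6 and Usp2) and DESeq2 at 1e-22 those of 32, among them Npas2, Sall1 and Heph. Leaving out a library ended, among the 113, the calls of Fbxl21, Mxi1, Nr1d1 and Usp2 and brought that of Gapdh.

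With the replicate number as a block, 3457 genes were called and 3455 were shared. No positive pairing by number was seen: deviations of the libraries with number 1 correlated at -0.02 between the compared pairs. With the third pair they correlated at -0.10 for Per/Nr1d_KO and -0.21 for the CPN-named libraries. With 2 libraries per pair, these values cannot show that no batch was shared.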
